A study of Mus musculus with 6 samples.

Results

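The regions described here are distal stretches of open chromatin that were clearly less open in newborn than in embryonic mouse nephron progenitors. A region was a member when its lowest E14.5 value was at least 1.25 times its highest P0 value, in CPM, the region's count divided by the library's total and brought to the same scale in every library. The total left out the 10 regions with the most counts. Distal means that the deposited table assigned the region to no promoter, and sex chromosomes were left out. There were 1462 members among 28472 distal autosomal regions (5.13%) and 43523 distinct regions in all. The same rule turned round, with the lowest P0 value at least 1.25 times the highest E14.5 value, held for 1391 distal regions (4.89%), and these serve below as the mirrored set. The rule used the CPM of all 6 libraries, so the levels of the members are given as a description without a test. The measurement was ATAC-seq, in which a transposase inserts sequencing adapters into accessible DNA, on nephron progenitors of the CD1 mouse strain taken before birth at E14.5 (3 libraries) or on the day of birth, P0 (3 libraries). In both groups the cells were released from pooled kidneys of a litter by a short collagenase and pancreatin digestion and picked with magnetic beads against the integrin Itga8, and each library was made from 50000 cells. The labels name no allele or drug in either group. Bead selection is an enrichment, so cells other than progenitors can be present in both groups.

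Nephron progenitors are the mesenchymal cells that cap the ureteric bud tips and either renew themselves or turn into the epithelium of new nephrons. The mouse pool is used up shortly after birth, and progenitors near that time differ in behaviour from those of the early kidney. Open regions away from promoters include enhancers, which can lie inside a gene, beside it or across long stretches without genes, and the nearest gene is not always the one that such an element controls. Genes for adhesion molecules, ion channels and transcription factors of the nervous system and mesenchyme often lie in or beside very long introns and gene-poor intervals.

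Sequence was at hand only for members that hold a RefSeq transcription start (build GRCm38.p6), and 16 members held all or part of the stretch before a start. The 5 windows below are a selection from them, made after the values were seen. They are shown because short letters or listed matches of motif families discussed later can be read in them. Other member windows hold some of the same letters. Each is written 5′ to 3′ on the strand of the transcript and ends at the base before its start. In the Gm34325, Gm32014 and Gm32067 windows the capitals mark the forkhead core TGTTTA, the Meis core TGACAG and the letters ATTGG on either strand, and in the Zfp781 and Zfp873 windows they mark the motif matches that the deposited table lists. In the Gm34325, Gm32014 and Gm32067 windows the table lists no motif match, so their capitals are not examples of the listed matches counted later. In promoter windows, 9 of 69 listed Foxj2 matches held TGTTTA and 28 of 52 listed Meis1 matches held TGACAG. These letters were read on the strand of the match only.
Gm34325 (chr2:122576317-122576495, plus strand): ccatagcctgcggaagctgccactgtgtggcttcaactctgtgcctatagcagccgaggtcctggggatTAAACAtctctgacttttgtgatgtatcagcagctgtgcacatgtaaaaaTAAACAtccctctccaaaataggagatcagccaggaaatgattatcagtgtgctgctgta
Gm32014 (chr9:8740989-8741238, minus strand): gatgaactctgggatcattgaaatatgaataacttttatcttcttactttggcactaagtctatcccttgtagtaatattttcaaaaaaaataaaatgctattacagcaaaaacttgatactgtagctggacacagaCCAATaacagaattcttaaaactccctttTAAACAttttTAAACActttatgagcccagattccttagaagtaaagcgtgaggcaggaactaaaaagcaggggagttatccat
Gm32067 (chr13:78483214-78483463, plus strand): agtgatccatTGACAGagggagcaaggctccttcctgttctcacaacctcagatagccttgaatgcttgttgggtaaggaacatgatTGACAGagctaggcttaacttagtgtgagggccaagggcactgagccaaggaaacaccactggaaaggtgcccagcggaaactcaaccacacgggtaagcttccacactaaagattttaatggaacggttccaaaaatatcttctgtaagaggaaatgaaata
Zfp781 (chr10:81930513-81930762, minus strand): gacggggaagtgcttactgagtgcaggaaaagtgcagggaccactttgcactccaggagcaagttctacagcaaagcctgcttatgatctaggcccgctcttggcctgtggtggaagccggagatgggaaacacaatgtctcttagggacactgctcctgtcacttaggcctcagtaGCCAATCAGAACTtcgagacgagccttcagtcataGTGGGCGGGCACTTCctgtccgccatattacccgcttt
Zfp873 (chr10:82047873-82048122, plus strand): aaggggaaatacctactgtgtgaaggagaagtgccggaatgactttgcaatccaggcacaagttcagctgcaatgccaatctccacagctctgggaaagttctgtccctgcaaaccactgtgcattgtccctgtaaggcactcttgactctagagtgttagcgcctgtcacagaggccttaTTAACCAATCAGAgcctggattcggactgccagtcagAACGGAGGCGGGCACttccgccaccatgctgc

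The Gm34325 window lies at one edge of the member nearest to Gatm, the enzyme that makes the precursor of creatine, and holds the forkhead core 2 times. That member had 9.70, 7.69 and 7.35 CPM at E14.5 and 2.50, 1.63 and 0.981 CPM at P0. The Gm32014 window, beside the calcium channel gene Trpc6, also holds the core 2 times, and its member had 29.2, 28.8 and 26.0 CPM at E14.5 against 16.1, 18.6 and 14.4 CPM at P0. The Gm32067 window, in the gene-poor interval beside Nr2f1, holds the Meis core 2 times, with 34.1, 31.6 and 41.5 CPM at E14.5 and 16.2, 13.8 and 22.7 CPM at P0. Over the 250 bases before all 32851 RefSeq starts, 12.0% hold TGTTTA and 15.9% hold TGACAG on either strand. Of the 17 member windows only those of Gm34325 and Gm32014 hold TGTTTA, a share near that over all starts. TGACAG is also held by other member windows, among them those of Zfp781 and Zfp873. The 2 zinc finger genes Zfp781 and Zfp873 lie in one array of related genes on chromosome 10, and in both windows the table lists a Foxi1 match followed by an E2f4 match. Their members had 18.7, 16.4 and 35.2 CPM at E14.5 against 10.8, 12.7 and 10.6 CPM at P0 for Zfp781, and 57.3, 43.4 and 73.8 CPM against 31.7, 24.4 and 28.1 CPM for Zfp873. Reads from related zinc finger genes can be shared between copies, so these values are uncertain.

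Total counts over the distinct regions ran from 6492996 to 12292629 per library. The promoters of 7 of 16 nephron progenitor markers were matched to open regions (among them Six2, Eya1, Osr1, Wt1, Sall1 and Gdnf), with summed levels of 237 to 257 CPM at E14.5 and 218 to 271 CPM at P0. Among the other progenitor markers Itga8, Cited1 and Pax2 had no matched promoter. Nephron differentiation genes gave 8 of 20, with 298 to 304 CPM and 276 to 329 CPM, and developmental timing genes 4 of 9, with 130 to 152 CPM and 103 to 124 CPM. Of the markers of other cells, 11 of 20 stromal genes were matched, with sums of 330 to 349 CPM at E14.5 and 316 to 417 CPM at P0, and 7 of 12 ureteric bud genes, with 226 to 262 CPM and 217 to 247 CPM. Endothelial genes gave 4 of 12, with 109 to 118 CPM and 98.1 to 114 CPM. Neural crest and neuron genes gave 4 of 12, with 303 to 345 CPM and 296 to 319 CPM, and among the others Sox10, Th, Elavl3, Tubb3, Foxd3 and Hand2 had no matched promoter. Per matched gene this list had the highest level, with means of 81.9 CPM at E14.5 and 77.7 CPM at P0. The progenitor markers had 35.0 and 35.8 CPM per matched gene. No promoter of the 10 immune genes was matched. A gene name was found for 10981 of 13555 autosomal promoter regions, so an unmatched gene need not have a closed promoter. In edgeR's quasi-likelihood test 2 of the timing promoters were lower at P0 past an adjusted p of 0.05, and no promoter region of the other lists passed. Open promoters are not expression, and the part of other cell types in the results below was not tested.

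The members as a group took 2.68%, 2.81% and 3.26% of the counts of the 3 E14.5 libraries and 1.28%, 1.43% and 1.40% of the counts of the 3 P0 libraries. The median member had 16.4, 16.8 and 19.6 CPM at E14.5 and 7.27, 8.33 and 7.94 CPM at P0, while the median distal region had between 12.3 and 15.4 CPM in all libraries. The members were thus above the typical distal region at E14.5 and below it at P0. The third E14.5 library was the highest of the 3 for 952 members, and the second P0 library was the highest of the P0 libraries for 667. The median ratio of the lowest E14.5 to the highest P0 value was 1.52, 770 members reached 1.5 and 239 reached 2. The median fold between the group means was 2.14. Fewer cells with a region open and less opening in each cell cannot be told apart in such bulk libraries. The authors' deposited table classes 871 members as closing and 591 as stable, and 942 of all distal autosomal regions (3.31%) as closing.

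Just inside the threshold was an intronic member of Vwc2, which encodes a secreted BMP antagonist, with 36.2, 47.7 and 56.1 CPM at E14.5 and 25.0, 28.6 and 29.0 CPM at P0. Just outside was a region in Robo2, a receptor for Slit proteins, with 11.3, 11.1 and 10.6 CPM at E14.5 and 6.56, 8.51 and 6.96 CPM at P0. Both regions had groups that did not overlap, and their ratios were both 1.25 after rounding.

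The member with the largest ratio overlapped an exon of Adgrb3 (chr1:25420427-25421217), an adhesion receptor of synapses. It had 15.9, 15.0 and 17.6 CPM at E14.5 and 2.86, 2.35 and 2.68 CPM at P0, a ratio of 5.23. Next came a region 245 kb from Ptprd (chr4:78455885-78457006), a receptor tyrosine phosphatase that organizes synapses, with 10.9, 19.6 and 19.7 CPM at E14.5 and 2.03, 2.17 and 2.23 CPM at P0. Its first E14.5 library was well below the other two and still far above all P0 libraries. A region 52.8 kb from Stxbp5 (chr10:9953552-9954595), which encodes the syntaxin-binding protein tomosyn, had 12.8, 13.7 and 16.0 CPM at E14.5 and 2.98, 3.08 and 2.41 CPM at P0. The table lists 7 forkhead names in it.

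Also among the 10 largest ratios was a region 506 kb from Brinp1 (chr4:69459511-69461027), a gene of the nervous system, with 29.5, 34.9 and 46.2 CPM at E14.5 and 5.37, 5.61 and 8.21 CPM at P0. Further members of this group lay near Pou1f1, a pituitary transcription factor, Car8, a carbonic anhydrase relative, Parp8, and Fscb, a sperm tail protein, with ratios of 3.72, 3.59, 3.42 and 3.39. The Adgrb3 member was the only exonic one of the 10, and the others were intergenic.

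**Figure D1:**
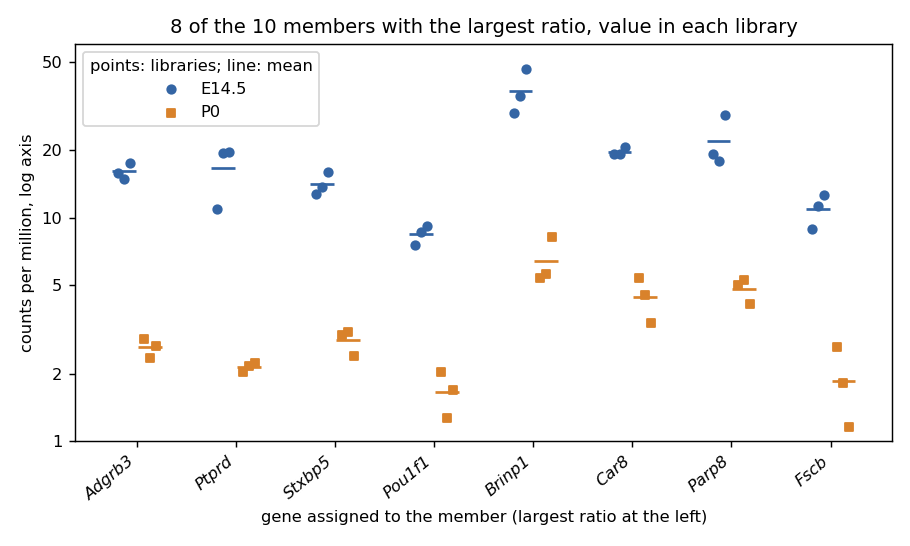
CPM on a log axis for 8 of the 10 members with the largest ratio, named by the assigned gene, in the 3 E14.5 libraries (circles) and the 3 P0 libraries (squares), with the mean of each group as a line. The groups are apart by the rule in every column, from a ratio of 5.23 at Adgrb3 to 3.39 at Fscb.

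Members lay further from genes than other distal regions. By the table's annotation 943 members (64.5%) were intergenic, 445 (30.4%) intronic and 74 (5.06%) exonic, against 57.3%, 34.2% and 8.52% of all distal autosomal regions and 49.7%, 40.5% and 9.71% of the mirrored set. The middle of a member fell inside a RefSeq protein-coding gene in 33.9% of cases, against 40.8% of all distal regions and 48.0% of the mirrored set. The genes that held members were long, with a median of 327 kb over members, against 194 kb over all distal regions and 205 kb over the mirrored set. Outside genes, the median distance to the nearest gene was 170 kb for members, 74.4 kb for all distal regions and 64.6 kb for the mirrored set. The interval between the flanking genes was over 1 Mb for 43.3% of members outside genes, 26.7% of all such distal regions and 25.0% of the mirrored set.

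The share of distal regions that were members changed with distance. It was 4.27% inside genes, 2.17% within 10 kb of a gene, 4.31% at 10 to 100 kb, 7.40% at 100 to 500 kb and 11.7% beyond 500 kb. The mirrored set went the other way over the outer classes, with 5.74%, 3.83%, 4.82%, 4.08% and 3.30%. By chromosome the share ran from 3.31% on chromosome 18 to 6.24% on chromosome 2. The median width was 1365 bases for members, 1480 bases for all distal regions and 1272 bases for the mirrored set. Regions are not replicates of a condition, so these shares carry no test.

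**Figure D2:**
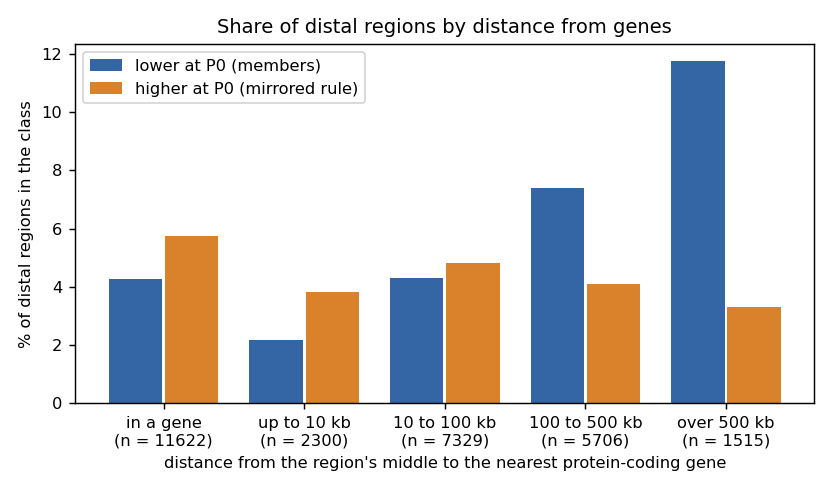
Share of distal regions that met the rule (blue) or the mirrored rule (orange), by distance from the middle of the region to the nearest protein-coding gene, with the number of distal regions of each class below it. The blue bars reach 11.7% beyond 500 kb, where the orange bar is at 3.30%.

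Each member was assigned to the protein-coding gene that holds its middle, or otherwise to the gene with the nearest edge. The members fell to 989 genes, of which 704 had 1 member, 285 had at least 2, 107 at least 3 and 19 at least 5. Of the 107 genes with at least 3 members, 58 had no region of the mirrored set and 49 had at least 1, and 292 of the 989 genes had regions of both kinds. A gene with many distal regions has more chances of a member, so each count is given with the number of distal regions assigned to that gene.

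Macrod2, a macrodomain enzyme that removes ADP-ribose, had 9 members of 47 distal regions, all in its introns, and 2 regions of the mirrored set. Over its distal regions the P0 mean was below the E14.5 mean in 25 of 47, with a median log2 difference of -0.10, while over all distal autosomal regions this held for 37.9%, with a median of 0.13. The members are part of that count.

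Cdh11, a cadherin of mesenchymal cells, had 7 members of 27 and 3 regions of the mirrored set. All 7 lay outside the gene, and the nearest on its left (chr8:102553113-102554690) had 37.9, 30.4 and 41.9 CPM at E14.5 and 8.11, 12.0 and 15.2 CPM at P0. The mirrored set included a region inside the Cdh11 gene. Nr2f1, the orphan nuclear receptor COUP-TF1, had 7 of 30, spread over the gene desert between it and Arrdc3 at distances from 285 kb to 1244 kb, and 1 region of the mirrored set. Flrt2, a leucine-rich repeat protein that binds latrophilins and Unc5 receptors, had 7 of 40 and 1 region of the mirrored set. Lsamp, an immunoglobulin-type adhesion protein of limbic neurons, had 7 of 49, of which 5 were in the gene. Its members were accompanied by 3 regions of the mirrored set. In Nr2f1, Flrt2 and Lsamp the median distal region was higher at P0, with median log2 differences of 0.07, 0.06 and 0.14, against 0.13 over all distal autosomal regions.

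Adgrl2, a latrophilin, had 7 of 52, all outside the gene, and 2 regions of the mirrored set. Slitrk6, a synapse-organizing transmembrane protein, had 6 of 14 and no region of the mirrored set. Its most open member (chr14:110170194-110172772) had 34.1, 32.7 and 35.2 CPM at E14.5 and 8.58, 11.4 and 13.3 CPM at P0. Pcdh9, a protocadherin, had 6 of 28, and its most open member (chr14:93498606-93500449) had 44.1, 52.0 and 56.1 CPM at E14.5 and 28.6, 22.6 and 30.1 CPM at P0. Iftap, a partner of the intraflagellar transport machinery, had 6 of 29, all in the interval that it shares with the synaptic adhesion gene Lrrc4c. Nav3, a microtubule-binding protein named for neurons, had 6 of 37, and Negr1, a relative of Lsamp, had 6 of 38 and 1 region of the mirrored set. Kcnt2, a sodium-activated potassium channel, had 5 of 11, Pcdh20 had 5 of 19 and the predicted gene Gm597 had 5 of 8. The other genes with 5 members, set after these because members were a smaller share of their regions, were Cdh8, Adgrl4, Dlg2 and Ptprd, with 22, 24, 42 and 46 distal regions. Dlg2 and Ptprd also had 3 and 4 regions of the mirrored set. None of Slitrk6, Pcdh9, Iftap, Nav3, Gm597, Kcnt2 and Pcdh20 had a region of the mirrored set.

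**Figure D3:**
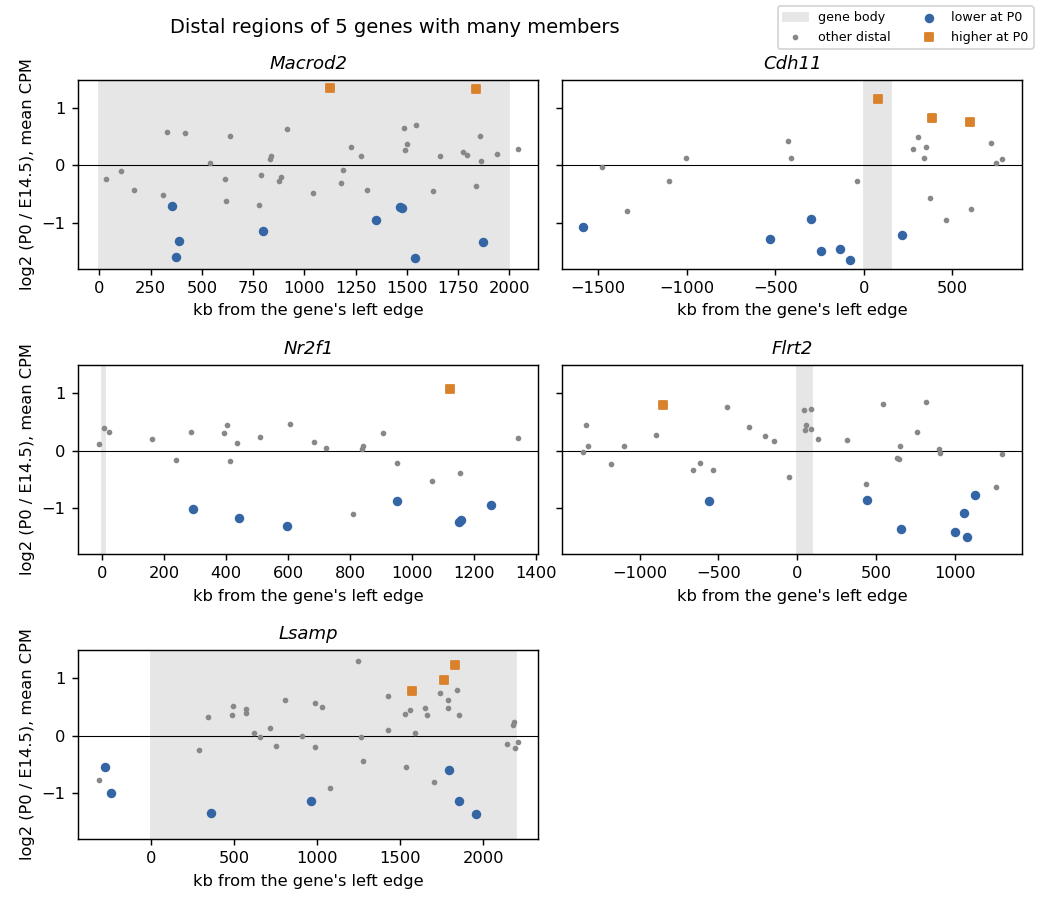
All distal regions assigned to 5 genes with 7 or 9 members, by distance from the gene's left edge in kb and by log2 of the P0 over the E14.5 mean CPM, with the gene body in grey. Members (blue circles) lie among regions that met neither rule (grey points) and a few of the mirrored set (orange squares), 1 to 3 per gene.

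Most members stood alone, and some had members as neighbours. With members chained when at most 100 kb separated them, 307 members (21.0%) fell into 143 clusters of 2 to 4. The next distal region within 100 kb of a member was itself a member for 190 of 1301 members, against 2042 of 25881 of all distal regions and 77 of 1315 of the mirrored set. A region of the mirrored set was that neighbour for 77 members, 2160 of all distal regions and 175 of the mirrored set, so both sets had neighbours of their own kind at a similar rate. Regions of one cluster can share a regulatory unit, so they are not independent of each other.

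The first cluster (chr2:140668094-140783898) held 4 members of 6 distal regions in the early introns of Macrod2, around Flrt3, a relative of Flrt2 that lies within the Macrod2 gene. Its member with the largest ratio had 15.0, 17.2 and 21.9 CPM at E14.5 and 6.32, 7.06 and 4.46 CPM at P0. In the gene desert beyond Flrt2 (chr12:96697172-96821795) all 4 distal regions were members, and the most open had 14.3, 18.8 and 27.8 CPM at E14.5 and 7.15, 8.51 and 5.80 CPM at P0. Between Slitrk1 and Slitrk6 (chr14:110377679-110619149) all 4 distal regions were members again, with E14.5 values from 12.9 to 25.5 CPM and P0 values from 6.56 to 13.2 CPM. A cluster from Bmp5 to Hmgcll1 (chr9:75833283-76001638) held 4 members of 6. Bmp5 is a secreted BMP ligand, and the member in its intron had 19.7, 17.1 and 24.3 CPM at E14.5 and 7.63, 9.23 and 7.22 CPM at P0. The table lists Sox matches in all 4 members of that cluster. The fifth cluster (chr10:107516412-107581343) held 3 of 6 regions, all overlapping exons of Ptprq, a phosphatase of inner ear hair cells. It was tied with other clusters of 3 members and was taken for its shorter span. None of these 5 clusters held a region of the mirrored set. Of the other clusters with 3 members, those at Lsamp and Cxcr4 held 1 each.

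Genes of neuronal adhesion and signalling held more of the members than of the distal regions at large. The 4 lists of synaptic adhesion, axon guidance, cadherin and ion channel genes together (232 genes) took 230 members (15.7%), against 8.92% of all distal autosomal regions and 9.99% of the mirrored set. Among the synaptic and neuronal adhesion genes, 99 of 1014 distal regions (9.76%) were members and 40 (3.94%) were of the mirrored set, against 5.13% and 4.89% of all distal regions. The members belonged to 36 of the 81 genes. Beside Flrt2, Lsamp, Adgrl2, Slitrk6 and Negr1, Ptprd had 5 of 46 and the neurexin Nrxn3 had 4 of 43. The postsynaptic protein Lrrtm4 had 3 of 10, and the teneurins Tenm2, Tenm3 and Tenm4 had 3 each, of 48, 43 and 43. Tenm3 also had 6 regions of the mirrored set. Of the intergenic regions of this list 57 of 476 (12.0%) were members, against 5.78% of all intergenic distal regions. Distance from genes was not matched in this comparison. Over all distal regions the share was 7.40% at 100 to 500 kb from a gene and 11.7% beyond 500 kb. The part of distance in the share of this list was not tested. Inside its genes the share was 7.92%, against 4.27% of all distal regions inside genes. The lists were drawn up with earlier results of these data known, so their shares are no independent support.

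Cadherins and protocadherins, which mediate calcium-dependent cell adhesion, had 44 members of 492 distal regions (8.94%) and 27 of the mirrored set. Beside Cdh11, Pcdh9 and Pcdh20, Cdh8 had 5 of 22. Its member with the largest ratio lay 1019 kb from the gene (chr8:98005125-98005757), with 12.8, 13.5 and 13.5 CPM at E14.5 and 2.74, 1.99 and 3.92 CPM at P0. A member 1180 kb from Pcdh20 (chr14:89650551-89652159) had 31.1, 36.4 and 36.9 CPM at E14.5 and 7.87, 9.96 and 8.29 CPM at P0.

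Ion channels and neurotransmitter receptors had 50 of 561 (8.91%) and 30 of the mirrored set. The glutamate receptor genes Gria1, Grm3, Grm7 and Grm8 had 3 members each, of 7, 10, 18 and 13 distal regions. An exonic member of Grm3 (chr5:9485240-9487070) had 20.1, 20.6 and 22.1 CPM at E14.5 and 6.56, 7.61 and 5.44 CPM at P0. A member 89.3 kb from the potassium channel Kcnh7 (chr2:63272358-63274795) had 38.8, 39.3 and 52.5 CPM at E14.5 and 12.6, 15.2 and 10.3 CPM at P0.

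Axon guidance genes had 37 of 472 (7.84%), and here the mirrored set was as frequent, with 42 (8.90%). The list thus held more regions of both directions than distal regions at large. The ephrin receptor Epha7 had 4 of 20, the netrin receptor Dcc 4 of 24, Epha6 3 of 12 and Epha3 3 of 23. The largest ratio of this list lay 1466 kb from the ephrin Efna5 (chr17:61136506-61137574), with 13.9, 13.5 and 14.3 CPM at E14.5 and 3.10, 4.53 and 4.37 CPM at P0. Robo1, a Slit receptor, had 2 members and 5 regions of the mirrored set.

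Long genes outside these 4 lists, with roles in scaffolding and signalling, had 59 of 756 (7.80%) and 40 of the mirrored set (5.29%), led by Macrod2, the synaptic scaffold Dlg2 with 5 of 42 and Auts2 with 4 of 19. A member 381 kb from the sorting receptor Sorcs1 (chr19:51059823-51060608) had 19.0, 21.9 and 19.2 CPM at E14.5 and 4.05, 5.07 and 5.71 CPM at P0.

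**Figure D4:**
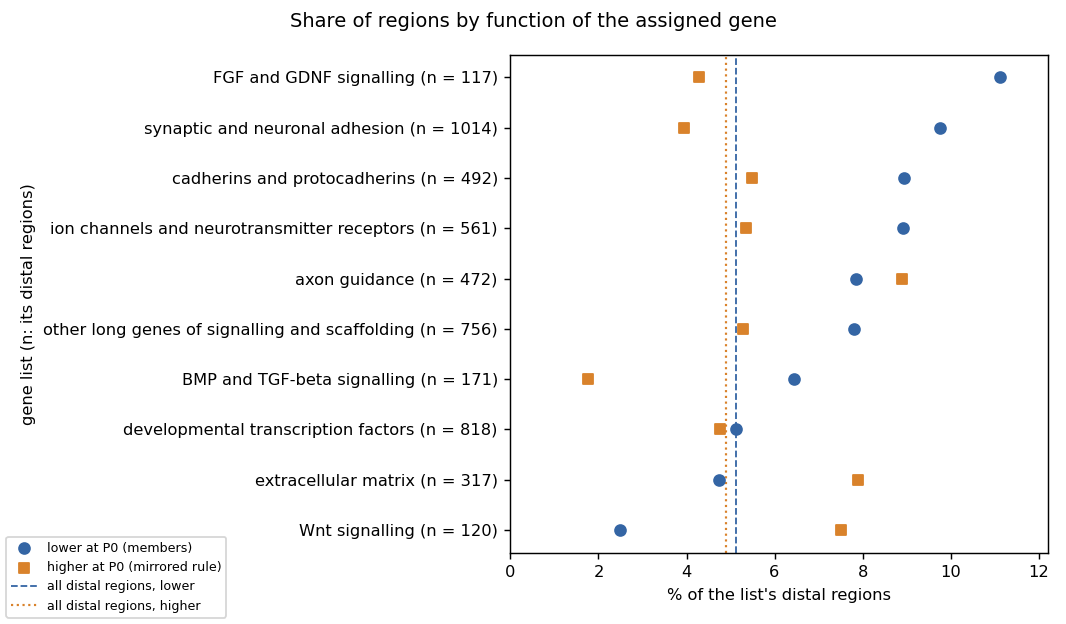
Share of the distal regions assigned to each function list that met the rule (blue circles) or the mirrored rule (orange squares), with the shares over all distal autosomal regions as dashed and dotted lines at 5.13% and 4.89%. Synaptic and neuronal adhesion genes stand at 9.76% and 3.94%, and Wnt genes at 2.50% and 7.50%.

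Of the signalling lists, FGF and GDNF genes had the highest share, 13 of 117 distal regions (11.1%), with 5 of the mirrored set. Fgf10, the mesenchymal ligand of branching organs, had 4 of 11, of which 3 formed a cluster. Fgf14, an intracellular FGF homologue that acts on sodium channels, had 2 of 10, and an intronic member (chr14:124230370-124231428) had 12.7, 12.4 and 15.6 CPM at E14.5 and 4.89, 3.26 and 4.64 CPM at P0. Fgf20, a ligand that nephron progenitors make and need, had a member 246 kb away (chr8:40032420-40033382) with 16.2, 22.7 and 21.0 CPM at E14.5 and 4.17, 5.61 and 7.14 CPM at P0. The FGF feedback inhibitor Spry2 had 2 of 12, and the one with the larger ratio had 9.30, 7.79 and 7.62 CPM at E14.5 and 4.17, 4.16 and 3.92 CPM at P0. With 13 members the share of this list rests on few regions.

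BMP and TGF-beta genes had 11 of 171 (6.43%) and 3 of the mirrored set. Bmp5 had 3 of 5, the ligand Gdf6 3 of 11 and the activin receptor Acvr2a 3 of 27. The 2 Acvr2a members with the largest ratios lay 1480 kb and 1847 kb from it, in the interval shared with Zeb2. Extracellular matrix genes had 15 of 317 (4.73%), near the 5.13% of all distal regions, and 25 of the mirrored set. Wnt genes had 3 of 120 (2.50%) and 9 of the mirrored set (7.50%). The Wnt members lay in Rspo2, near Rspo3, both secreted enhancers of Wnt signalling, and near the receptor Fzd8. The Rspo2 member had 14.4, 12.7 and 10.6 CPM at E14.5 and 5.37, 3.44 and 5.08 CPM at P0.

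Developmental transcription factors had 42 of 818 (5.13%), the same share as all distal regions, and 39 of the mirrored set. The LIM homeobox gene Isl1 had 4 of 17, and a member 280 kb from it (chr13:116017520-116018422) had 15.6, 15.6 and 22.6 CPM at E14.5 and 2.62, 4.89 and 3.03 CPM at P0. Zfhx4, a large zinc finger homeobox factor, had 3 of 11.

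Genes that mark the progenitors themselves had 4 members of 44 distal regions (9.09%) and 3 regions of the mirrored set (6.82%), against 5.13% and 4.89% of all distal regions. The 4 members belonged to Eya1 and Itga8, and so small a count fixes the share only loosely. The intronic member of Eya1, a coactivator of Six2 and its relatives, had 16.7, 19.6 and 22.1 CPM at E14.5 and 7.03, 7.24 and 7.76 CPM at P0 (chr1:14217690-14219288). Itga8 had 2 of 7. The member in an Itga8 intron (chr2:12221390-12222681) had 30.7, 28.2 and 41.1 CPM at E14.5 and 8.58, 13.4 and 18.6 CPM at P0, and the beads selected cells by the protein of this gene in both groups. The P0 libraries of this region were spread wider than in most members named here.

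Genes of nephron differentiation had 3 of 75 (4.00%), near Jag1, Irx2 and Pou3f3. The member 519 kb from the Notch ligand Jag1 (chr2:137634727-137636443) had 28.7, 31.7 and 40.7 CPM at E14.5 and 9.90, 18.7 and 19.5 CPM at P0. Stromal markers had 3 of 84 (3.57%) and 8 of the mirrored set (9.52%). The stromal member near Alx1, a homeobox gene of mesenchyme, had 27.2, 35.1 and 49.1 CPM at E14.5 and 9.18, 10.3 and 16.9 CPM at P0. Ureteric bud markers had 3 of 31 (9.68%), all assigned to Gata3, and 2 of the mirrored set (6.45%). Neural crest and neuron markers had 4 of 43 (9.30%), assigned to Stmn2, Elavl4 and Hand2, and 3 of the mirrored set (6.98%). Both shares of members were above the 5.13% of all distal regions, on 3 and 4 regions, and the part of such cells was not tested. The lists of developmental timing, endothelium and immune cells had no member among 26, 37 and 14 distal regions, against 2, 4 and 2 of the mirrored set.

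The table lists matches to 56 motif names per region, and 60.9% of members had at least 1, near the 59.0% of all distal regions. Forkhead proteins are winged-helix transcription factors, of which Foxd1 marks kidney stroma and Foxc1 and Foxc2 act in kidney mesenchyme and podocytes. A match to any of 20 forkhead names was listed for 529 members (36.2%), against 23.1% of all distal regions and 18.5% of the mirrored set. Among members with a ratio under 1.5, from 1.5 to 2 and of at least 2 the share was 33.8%, 37.3% and 40.6%. It was 37.5% of intergenic and 33.9% of intronic members, against 24.1% and 21.9% of all distal regions of these kinds. Seen from the other side, 8.05% of distal regions with a forkhead match and 4.26% of those without were members. Several forkhead names can be listed at one site, so they are not separate counts. Foxi1, whose listed matches in promoter windows held ATTGG in 389 of 389 cases, was left out of the forkhead names after this was seen.

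Meis, a homeobox family of mesenchyme, was listed for 9.85% of members, 6.84% of all distal regions and 5.39% of the mirrored set. Sox matches stood at 16.1%, 15.1% and 12.9%, and AP-1 matches at 5.27%, 5.16% and 5.75%, with little between the sets. Maz matches were listed for 8.21% of members, 13.3% of all distal regions and 14.1% of the mirrored set. Sall matches stood at 6.70%, 12.0% and 12.5%, and Smad matches at 5.06%, 9.31% and 8.12%. E2f matches stood at 3.21%, 6.31% and 5.03%. Matches to Six2, the progenitor factor, were rare, at 1.85%, 3.21% and 3.52%. The base composition of the matches moved with these differences. Read in RefSeq promoter windows, forkhead matches were 31.3% G or C, while Maz, Sall and E2f matches, which were rarer in members, were 77.6%, 78.4% and 82.1% G or C. Matches to Six2 and Meis had 45.4% and 48.9% G or C, and the first were rarer and the second more frequent in members than in all distal regions. The base composition of the members was not measured here, and its part in the motif shares was not tested.

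**Figure D5:**
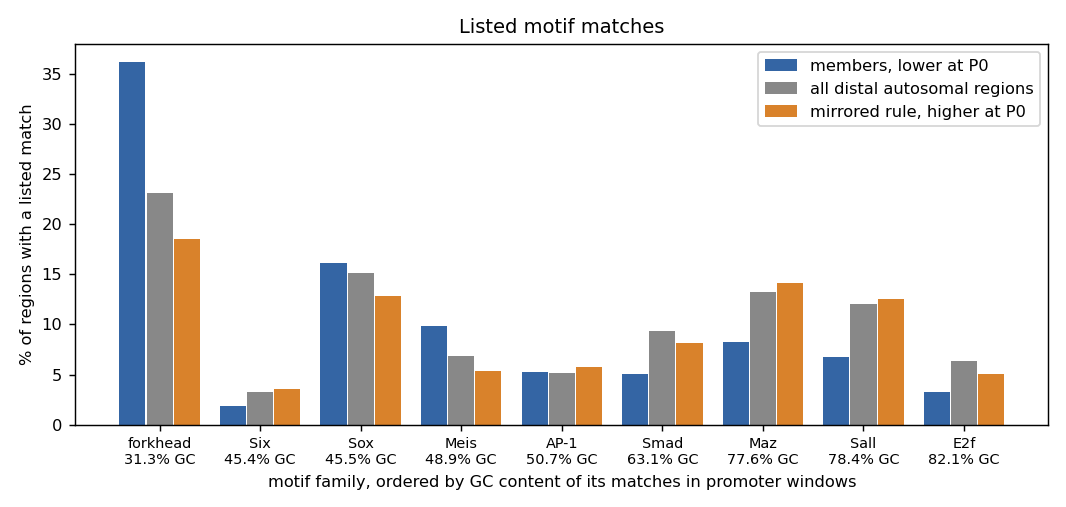
Share of members (blue), all distal autosomal regions (grey) and the mirrored set (orange) with a listed match of each motif family, ordered by the G and C content of the matches in promoter windows. Forkhead matches are listed for 36.2%, 23.1% and 18.5%, and Maz matches for 8.21%, 13.3% and 14.1%.

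Few members overlapped catalogued enhancers. The table marks 64 members (4.38%) as overlapping a FANTOM enhancer, a catalogue based on transcription start sites, against 8.77% of all distal regions and 7.40% of the mirrored set. The header of the FANTOM column names an older mouse build than that of the regions. How the builds were matched is not given in the sources used here. Overlap with a VISTA element, a conserved sequence tested in transgenic embryos, is marked for 7 members (0.479%), 0.878% of all distal regions and 9 regions of the mirrored set (0.647%). Those described here are named because of this overlap, after their values were seen. They lay in Zfhx4, Nrxn3, Vrk2 and Chd9, in a gene of chromosome 13 without a common name, and between Fbxo8 and Hand2, a factor of limb and heart. The Zfhx4 member had 27.9, 30.9 and 35.2 CPM at E14.5 and 17.3, 20.5 and 20.6 CPM at P0. The member between Fbxo8 and Hand2 had 23.6, 24.1 and 28.4 CPM at E14.5 and 15.5, 12.3 and 11.9 CPM at P0.

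Promoters of the assigned genes were compared between P0 and E14.5 in edgeR's quasi-likelihood test over all regions, with Benjamini-Hochberg adjustment. They are other regions than the members but come from the same libraries and contrast, so they are not independent of the rule. Some members hold a RefSeq start of their own assigned gene, among them those of Zfp781, Zfp873, Fgf12 and Aven. The deposited table assigned them to no promoter, so they are not counted among the promoter regions below. A promoter region was matched for 661 of the 989 genes, 848 regions in all. Of these, 5 (0.59%) were lower and 2 (0.236%) higher at P0 past an adjusted p of 0.05, against 0.48% and 0.391% of all autosomal promoter regions. These shares are near the background. At an unadjusted p under 0.05, 51 of the 848 (6.01%) were lower and 28 (3.30%) higher, against 6.2% and 2.67% of all autosomal promoter regions. The median log2 fold change was -0.06, against -0.11 over all autosomal promoter regions, and the quartiles were -0.21 and 0.09. Over the promoter regions of genes assigned to any distal region the median was -0.07. Of these, 0.568% were lower and 0.379% higher past the adjusted threshold.

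The promoter of Kcna3 (chr3:107033192-107034177), a voltage-gated potassium channel, had 14.0, 16.2 and 30.1 CPM at E14.5 and 4.17, 5.79 and 4.28 CPM at P0. It was lower at P0 in the same direction as its 1 member, by -2.13 ± 0.31 (SE) in log2 fold change, with 0.00265 as the edgeR adjusted p, and it stayed past the threshold in 12 of 12 alternative fits. The other 4 that were lower belong to Anxa1, a phospholipid-binding protein, Sema6d, a semaphorin, Vps13d, a lipid transfer protein, and C7, a complement component. Their log2 fold changes were -1.20, -1.34, -0.80 and -1.22, with edgeR adjusted p of 0.0242, 0.0349, 0.0401 and 0.0464, and each fit that left out E14.5 replicate 1, E14.5 replicate 3 or P0 replicate 1 lost all 4 calls. With total counts without the 10 largest regions, the scaling of the CPM values, Sema6d, Vps13d and C7 missed the threshold with edgeR adjusted p of 0.0508, 0.0527 and 0.0567. The C7 call was kept in only 4 of 12 alternative fits and was lost without any 1 library and with the replicate block (0.0868).

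For 2 genes a promoter region went against the members. A promoter region of Nav3 (chr10:109902985-109904805) had 19.1, 27.2 and 17.2 CPM at E14.5 and 54.4, 37.1 and 41.4 CPM at P0, a difference of 1.03 ± 0.23 (SE) on the log2 scale at an edgeR adjusted p of 0.0179. The other two promoter regions of Nav3, one of them the most open of the 3, had log2 differences of 0.0030 and -0.00088 with edgeR adjusted p of 0.996 and 0.999. A member of the same gene 12 kb away (chr10:109888471-109890666) had 14.8, 19.8 and 28.0 CPM at E14.5 and 6.80, 10.5 and 5.62 CPM at P0. The adjusted p of this promoter rose to as much as 0.146 over the 12 alternatives, and the call was lost without E14.5 replicate 1, E14.5 replicate 3 or P0 replicate 1. A promoter region of Tnc (chr4:64021009-64021438), the matrix protein tenascin C, had 2.83, 3.29 and 2.89 CPM at E14.5 and 7.39, 11.2 and 10.4 CPM at P0. The log2 difference was 1.65 ± 0.32 (SE) at an edgeR adjusted p of 0.00910, and 11 of 12 alternatives kept the call, with 0.0659 without E14.5 replicate 3.

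Among the 15 genes with the most members, ties taken by the larger share of members, 13 had a matched promoter, and only the Nav3 promoter region passed the threshold in edgeR. The promoters of Macrod2, Cdh11, Flrt2, Adgrl2, Pcdh9 and Negr1 had log2 fold changes of -0.30, 0.05, 0.09, 0.06, 0.03 and -0.05. That of Slitrk6, with 6 of 14 distal regions less open, had -0.53 and an edgeR adjusted p of 0.194.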

How the data were processed

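The deposited table gives, per the file headers, a count for each of 6 libraries in each open region, the authors' log2 fold change and class, and lists of motif matches. The p-values, adjusted p-values and t and B score columns of the authors' comparison, per the file headers, were deposited beside them and were not used. The authors' model is not given in the sources used here. Per the submitters' processing notes the build is mm10. The aligner, peak caller and motif threshold are not given in the sources used here. Of 45489 rows, 1966 repeated a region and were dropped. CPM was computed from the deposited counts without the 10 regions with the most counts. Group and replicate numbers come from the labels. Genes are those of RefSeq on GRCm38.p6, with 21887 protein-coding genes.

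The promoter test was edgeR 4.0.16 (TMM, filterByExpr, quasi-likelihood F test, threshold 0.05) in R 4.3.3, and DESeq2 1.42.0 was an alternative. It was tested on simulated data. The fixed plan assigned members outside genes to the nearest start. Starts were at hand for 17492 genes only, so the nearest gene edge was used, and the nearest start became an alternative. Promoter regions were named through the table's own pairs of identifiers and names, and 10981 of 13555 autosomal ones gave a RefSeq gene. The gene predictions in the table were not used.

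The named regions are the 10 largest ratios, the 5 clusters with the most members, up to 3 members per list and those at the threshold. Ties between clusters were broken by the shorter span. The named genes are the 15 with the most members and those of these regions, and the named promoters are the ones past the threshold and those of named genes. The members and lists were chosen with earlier results of these data known. The motif families, distance classes, sequence windows and the sum of 4 lists were chosen after values were seen, and 1 list was renamed. The series' design calls the replicates biological, each pooled from one litter. Whether PCR duplicates were removed is not given in the sources used here. Some genes that these rules name are not reported here.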

Additional observations from a re-analysis of the deposited data

How the results depend on the processing

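With a threshold of 1.5 there were 770 members and with 2 there were 239. Leaving out a library can only add members, and it gave 1616 to 2145. The other settings gave counts within 1.5 times of 1462. The share in clusters was 10.5% with gaps of at most 50 kb, 35.6% with 200 kb and 13.6% at a threshold of 1.5, and 22.2% to 26.3% without a library. The share of members assigned to synaptic and neuronal adhesion genes was 6.77% at a threshold of 1.25, 6.36% at 1.5 and 8.37% at 2, with no steady trend. The share with a forkhead match was 36.2%, 38.3% and 40.6%. Without a library these were 6.09% to 6.75% and 33.6% to 34.9%. The alternatives for these 2 shares and for promoters called higher were chosen after seeing the data. Promoters lower at P0 numbered 10 in DESeq2, 2 with total counts without the 10 largest regions, 3 for host genes only, 2 for genes with 2 or more members and 1 to 6 without a library. Promoters higher at P0 numbered 4 in DESeq2, 1 with the nearest start, 1 for host genes, 1 for genes with 2 or more members and 0 to 8 without a library. The calls over all autosomal promoter regions moved too, from 65 lower and 53 higher to 138 and 80 in DESeq2, 50 and 54 with total counts, 84 and 107 without E14.5 replicate 2, and 9 and 3 without E14.5 replicate 3. The median promoter log2 fold change ran from -0.13 to 0.01 without a library, and turned to 0.00908 without P0 replicate 2. The cause of the shifts was not tested. The labels do not say whether same-numbered libraries shared a batch. The r of their deviations was 0.07, -0.14 and 0.08, and ran from -0.24 to 0.19 for the other pairs, which does not settle it. With the replicate block 4 promoters were lower and 2 higher, with a median of -0.07. With 3 libraries per group, members at a few CPM rest on few counts, the lowest being 0 in a P0 library.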

Other observations

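The promoters of the genes assigned to the mirrored set had a median log2 fold change of 0.01, against -0.06 for the genes of the members. The median was -0.07 for genes assigned to any distal region and -0.11 for all autosomal promoter regions. Among genes with 4 members outside the function lists, Alcam, an adhesion molecule, had 4 of 16 distal regions, Dpyd, the first enzyme of pyrimidine breakdown, 4 of 17, Tafa2, a secreted neurokine, 4 of 25 and Gpc5, a glypican, 4 of 38. Prmt6, an arginine methyltransferase, had 4 of 9. Of these 5 genes, Gpc5 and Prmt6 each had 1 region of the mirrored set. These were named after their counts were seen.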
